A study of Oryctolagus cuniculus with 9 samples.

Results

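Transcripts of 4 collagen genes of fibrous connective tissue, COL1A1, COL1A2, COL3A1 and COL5A2, were followed in cartilage of New Zealand White rabbits (4 to 5 months old) by RNA sequencing 12 weeks after surgery. The genes were selected by their symbols, and all 4 were found among the 14870 genes of the table and passed the filter on low values in every comparison. Cartilage defects were made in the trochlear groove of the knee. The left knee was left without an implant (untreated) and the right knee received a scaffold of collagen and chondroitin sulfate (CLCS), whose collagen is type I from bovine tendon. Healthy cartilage, taken from the condyle according to the scheme of the study, was the third group, so a difference from healthy tissue is also a difference in site and the 2 cannot be told apart. Each group had 3 libraries. The labels do not state which libraries came from the same rabbit, so p-values measure the spread between these libraries.

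Fibrillar collagens are trimers that cells secrete as procollagen and assemble into cross-linked fibrils. COL1A1 and COL1A2 encode the pair of chains of type I collagen, the main collagen of bone, tendon, ligament, skin and scar. COL3A1 encodes the single chain of type III collagen, which is abundant in granulation tissue and in compliant organs and also occurs on cartilage fibrils. COL5A2 encodes a chain of type V collagen, which co-assembles with type I collagen and limits fibril diameter. Hyaline cartilage is built on type II collagen, the product of COL2A1, and the balance of type I to type II is used in this field to tell fibrocartilage from hyaline repair tissue.

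Values are normalized reads, the whole reads of a gene divided by the size factor of its library. Each library held between 724986 and 1226408 recovered reads, and the 4 collagen genes held between 39 and 2123 reads each, so counting alone gave a coefficient of variation (CV, the SD as a share of the mean) of between 2.73% and 13.0% on average over the libraries of a group. The third untreated library stood apart: its summed chondrocyte markers came to 840 normalized reads, against 5260 to 28284 in the other 8 libraries. Results that rest on it are given with and without it. The strand setting of the count is not given in the sources used here, and ND6, the one of 13 mitochondrial protein genes that is encoded on the opposite strand to the others, took between 86.0% and 94.4% of their reads. ACTB, abundant in most tissues, had between 10 and 128 reads per library. Whether the library kit marked strand is not given in the sources used here either, and whether reads were counted on the strand opposite to the genes was not tested. The recovered reads are also far fewer than the aligned pairs listed for these libraries. COL1A2 and COL3A1 overlap unnamed loci in RefSeq's annotation of the mOryCun1.1 assembly (the reads were aligned to oryCun2.0), so reads could be shared there. In such bulk samples, a change in the number of cells of a type and a change in RNA per cell cannot be told apart.

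Type I collagen transcripts were low in healthy cartilage and more than 9-fold higher on average in both defect groups. COL1A1 measured 247, 95.4 and 36.1 normalized reads in the healthy libraries 1, 2 and 3. It measured 1542, 795 and 1925 in the untreated and 2052, 1208 and 1326 in the CLCS libraries. Every defect library lay above every healthy library, and the lowest of them, untreated 2, was still above the highest healthy one. The mean was 126 ± 109 in healthy, 1421 ± 575 in untreated and 1529 ± 457 in CLCS libraries (SD, n = 3 each). Both comparisons with healthy cartilage passed the test: on the log2(value + 1) scale COL1A1 rose by 3.79 ± 0.70 (SE) in untreated defects, with a limma adjusted p of 0.0398, and by 3.95 ± 0.65 in CLCS defects, with an adjusted p of 0.0277.

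COL1A2, the gene of the partner chain, followed the same course. Its normalized reads were 180, 50.7 and 35.2 in healthy, 1014, 770 and 916 in untreated and 1099, 702 and 675 in CLCS libraries. Again no defect library reached down to the healthy range, and the spread within each defect group was small, with a CV of 13.6% in untreated and 28.8% in CLCS libraries against 89.6% in healthy ones. COL1A2 rose by 3.68 on the log2 scale in untreated defects (SE 0.59, limma adjusted p = 0.0292) and by 3.53 in CLCS defects (SE 0.59, adjusted p = 0.0288).

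The healthy libraries were the more variable group for type I collagen. Healthy library 1 had the most and library 3 the fewest reads of both chains, a 6.83-fold range for COL1A1 and a 5.11-fold range for COL1A2. Without any one library the log2 fold change of COL1A1 remained between 3.11 and 4.48 in untreated and between 3.27 and 4.64 in CLCS defects, and that of COL1A2 between 3.21 and 4.37 and between 3.06 and 4.22. The calls were less robust than the sizes. In untreated against healthy tissue, leaving out any one of the 6 libraries ended the COL1A1 call (limma adjusted p from 0.0655 to 0.116), and leaving out any but healthy 1 ended that of COL1A2 (adjusted p from 0.0768 to 0.115; 0.0276 without healthy 1). In CLCS against healthy tissue, both calls held without healthy 1 (adjusted p = 0.0326 for COL1A1 and 0.0309 for COL1A2) and ended without any other single library (adjusted p from 0.0600 to 0.139). Without untreated 3, the library that stood apart, COL1A1 differed by 3.53 (adjusted p = 0.113) and COL1A2 by 3.66 (adjusted p = 0.0768).

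**Figure D1:**
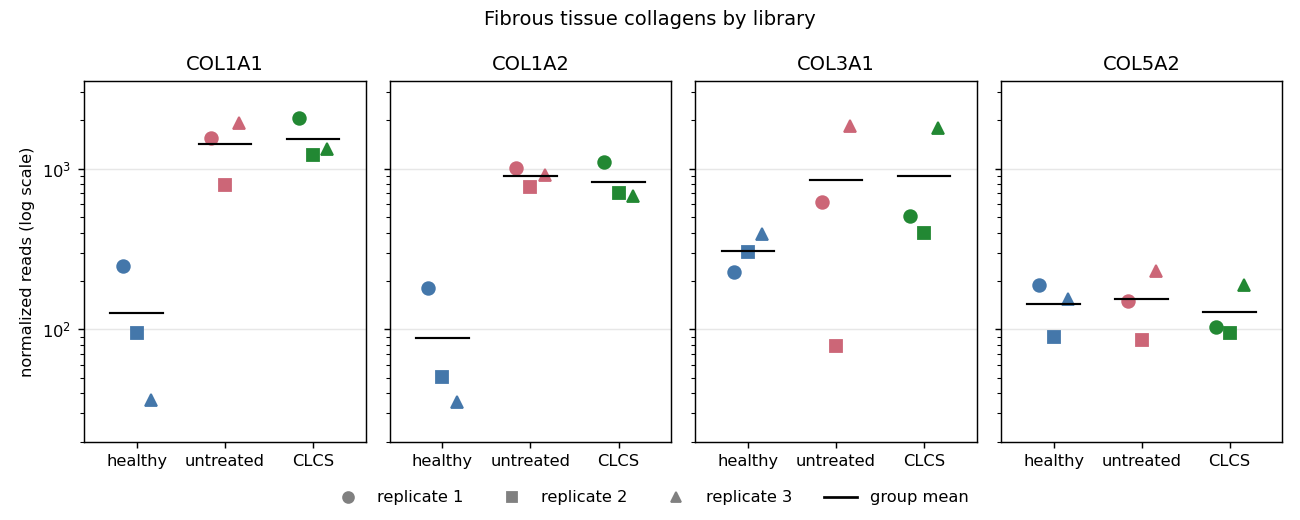
Normalized reads of the 4 collagen genes in each of the 9 libraries, on a log scale, with 1 symbol per library (shape for the replicate number) and a line at each group mean. Both type I chains lie higher in all 6 defect libraries than in the 3 healthy ones, COL3A1 spreads from 79.0 to 1831 within the untreated group, and COL5A2 stays between 86.0 and 229 in all groups.

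Type III collagen differed more between libraries than between groups. COL3A1 measured 226, 303 and 389 normalized reads in healthy libraries 1 to 3. In the untreated libraries it measured 618, 79.0 and 1831, so that one library lay below and the other two above the whole healthy range. In the CLCS libraries it measured 508, 399 and 1798, all above the healthy libraries, although library 2 exceeded the highest healthy value by little. The CV was 26.7% in healthy, 106% in untreated and 86.3% in CLCS libraries, far over the counting error of 6.93% or less. The log2 fold change was 0.58 in untreated defects (SE 1.03, 95% interval -1.83 to 2.99, limma adjusted p = 0.857) and 1.25 in CLCS defects (SE 0.57, 95% interval -0.08 to 2.58, adjusted p = 0.313), so no change was called and increases of the size seen for COL1A1 lay outside both intervals. The untreated difference was 1.501 by edgeR (adjusted p = 0.469) and 1.498 by DESeq2 (adjusted p = 0.380), and was not called by either. The CLCS difference was 1.585 by edgeR (adjusted p = 0.175) and 1.593 by DESeq2 (adjusted p = 0.0628), also not called but nearer to the threshold.

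The COL3A1 value of the untreated group depended on which library was left out. Without untreated 2 it was 1.83 (limma adjusted p = 0.238), and without untreated 3 it turned to -0.43 (adjusted p = 0.904). In CLCS defects the value was 0.59 without CLCS 3 (adjusted p = 0.567) and 1.67 without CLCS 2 (adjusted p = 0.274). The high values were shared by replicate number: replicate 3 was the highest of its group for COL3A1 in healthy, untreated and CLCS tissue alike. With the replicate number as a block the CLCS difference of 1.25 had an adjusted p of 0.152 in limma.

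Type V collagen showed no detectable difference. COL5A2 measured 189, 89.3 and 154 normalized reads in healthy, 150, 86.0 and 229 in untreated and 103, 94.5 and 189 in CLCS libraries. The 3 groups overlapped throughout, and replicate 2 was the lowest of each. The log2 fold change was 0.064 in untreated defects (SE 0.46, 95% interval -1.02 to 1.14, limma adjusted p = 0.969) and -0.16 in CLCS defects (SE 0.41, 95% interval -1.11 to 0.79, adjusted p = 0.878). Both upper bounds lie below the lower bounds of the type I chains, which were 2.15 or more. COL5A1, the other major type V chain, was not found under its symbol and so was not analysed here. COL5A3, a minor chain chosen here after its values were seen, had 2.83, 10.2 and 0 normalized reads in healthy, 11.0, 6.001 and 108 in untreated and 22.7, 6.89 and 31.1 in CLCS libraries, with the highest value in untreated 3.

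Set against all genes, 2 of the 4 collagens were called higher in untreated and 2 of 4 in CLCS defects. Of all genes tested 1.34% were called higher in untreated defects (47 of 3496) and 2.13% in CLCS defects (70 of 3294), while 1.2% and 1.03% were called lower. With scaling to the library total the calls were 64 higher and 37 lower in untreated defects, and 39 higher and 97 lower in CLCS defects, so the balance of directions in CLCS defects depended on the scaling. Groups that do not overlap, with every defect library higher, were found for the 2 type I chains in untreated tissue, against 11.3% of all genes. In CLCS tissue they were found for the 2 type I chains and COL3A1, against 12.2% of all genes. Both comparisons share the 3 healthy libraries.

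The scaffold group and the untreated group were not told apart for any of the 4 genes. The log2 difference, CLCS minus untreated, was 0.16 for COL1A1 (95% interval -0.78 to 1.10) and -0.15 for COL1A2 (95% interval -0.85 to 0.54). It was 0.67 for COL3A1 (95% interval -1.94 to 3.28) and -0.23 for COL5A2 (95% interval -1.26 to 0.81), and limma gave each of the 4 an adjusted p of 0.996. As a fold, the intervals allow COL1A1 in CLCS defects to be between 0.581 and 2.15 times the untreated level, and COL3A1 between 0.261 and 9.71 times. None of the 4 had groups that do not overlap with CLCS higher, against 3.82% of all genes. Across all 3275 genes limma called 0% in this comparison (95 genes had an unadjusted p under 0.05), and edgeR and DESeq2 also called 0 genes. Scaling to the library total shifted the median of all genes to -0.51 in this comparison, from -0.004, and the COL1A1 difference with it to -0.39.

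**Figure D2:**
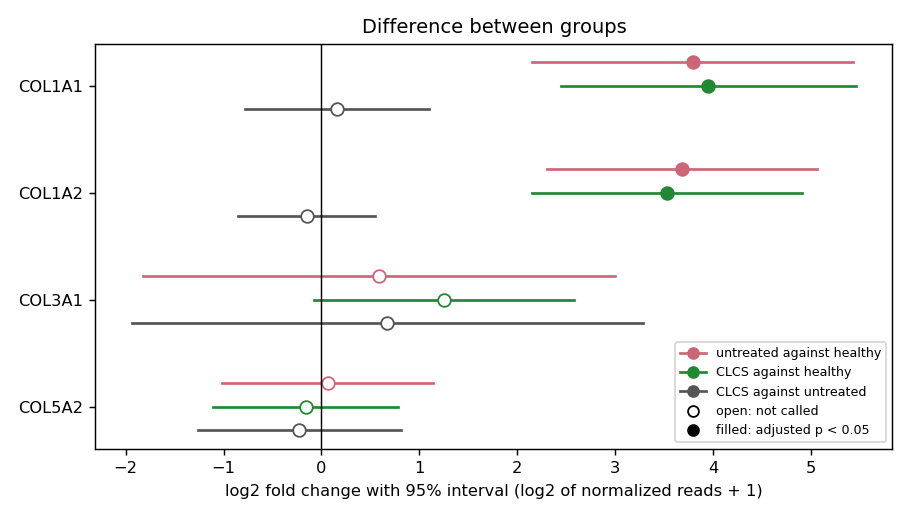
Log2 fold change of each collagen gene (points, filled where the adjusted p is under 0.05) with its 95% interval (lines) for the 3 comparisons of groups with 3 libraries each. Only the 2 type I chains against healthy cartilage are filled, with values from 3.53 to 3.95, and the intervals of all 4 genes between CLCS and untreated defects include 0.

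The ratio of a collagen to COL2A1 within a library needs no scaling between libraries. COL2A1 itself measured 8610, 7968 and 6874 normalized reads in healthy, 8816, 4062 and 458 in untreated and 8971, 9082 and 25533 in CLCS libraries. It was lowest in untreated 3 and highest in CLCS 3, and was called in no comparison (log2 fold change -1.61 in untreated and 0.71 in CLCS against healthy tissue, with SE 0.98 and 0.44 and limma adjusted p of 0.504 and 0.462). The ratios below count reads and are not corrected for transcript length.

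Per 100 reads of COL2A1, healthy libraries held between 0.526 and 2.87 reads of COL1A1, CLCS libraries between 5.19 and 22.9, and untreated libraries between 17.5 and 420. Untreated 3 was the only library above 100. All 6 defect libraries exceeded all 3 healthy ones, by 4.34 on the log2 scale on average (two-sided exact permutation p = 0.0238, the smallest that 6 against 3 libraries can give, and 0.0476 adjusted over the 4 ratios). For COL1A2 the difference was 4.08 (exact permutation p = 0.0238, adjusted 0.0476). Without untreated 3 both remained above the healthy range, by 3.53 and 3.33 (exact permutation p = 0.0357, the smallest for 5 against 3, adjusted 0.0714). Leaving out any other defect library gave the same p-values, and leaving out a healthy library gave 0.0714, adjusted 0.143, again the smallest that the design allows. These tests exchange the 9 libraries freely, although CLCS libraries correlated with those of equal replicate number in either other group, by deviations from the group means. Exchanged only among libraries of equal replicate number, which leaves 27 arrangements, both ratios gave an exact permutation p of 0.0741, adjusted 0.148, the smallest that this exchange can give and above the threshold.

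The ratios of COL3A1 and COL5A2 to COL2A1 overlapped between defect and healthy tissue. COL3A1 had between 2.63 and 5.67 reads per 100 COL2A1 reads in healthy, between 1.95 and 400 in untreated and between 4.39 and 7.04 in CLCS libraries (log2 difference 1.37, exact permutation p = 0.357, adjusted 0.476). Without untreated 3 that difference was 0.30. COL5A2 had between 1.12 and 2.23 reads per 100 in healthy, between 1.71 and 50.1 in untreated and between 0.741 and 1.15 in CLCS libraries (log2 difference 0.40, exact permutation p = 0.810), and without untreated 3 its difference turned to -0.48.

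**Figure D3:**
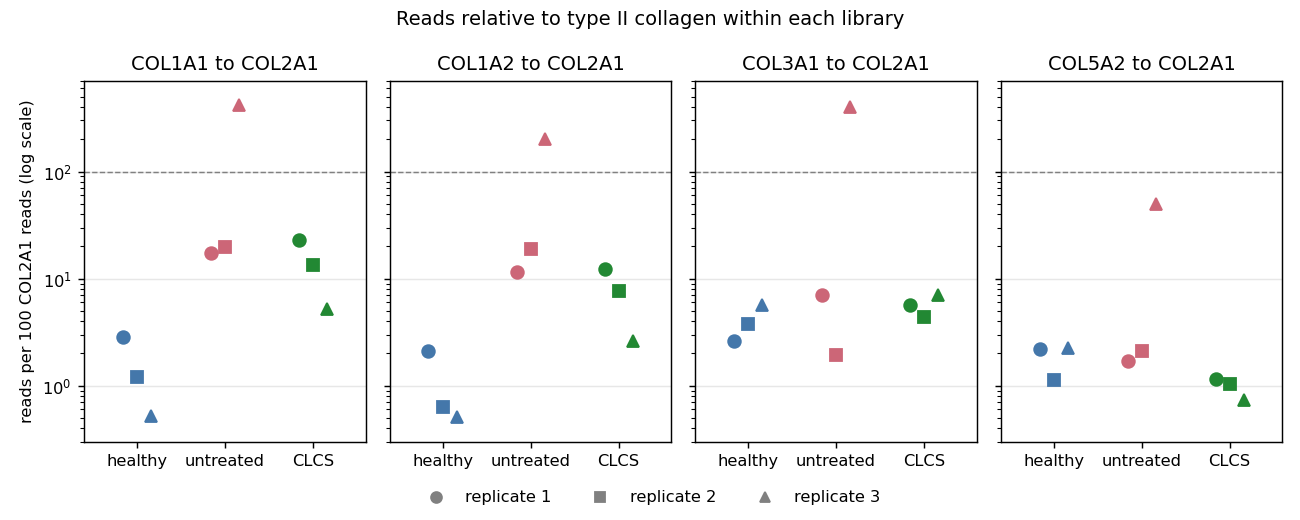
Reads of each collagen per 100 COL2A1 reads in the same library, on a log scale, with 1 symbol per library (shape for the replicate number) and a dashed line where both genes have equal reads. COL1A1 and COL1A2 lie higher in all defect libraries than in healthy ones, and untreated 3 lies above the line for COL1A1, COL1A2 and COL3A1 (420, 200 and 400 reads per 100).

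Among themselves the collagens were compared by their read ratios within a library. The 2 type I chains kept overlapping proportions: 1.03 to 1.88 reads of COL1A1 per read of COL1A2 in healthy, 1.03 to 2.10 in untreated and 1.72 to 1.96 in CLCS libraries, with a log2 difference between defects and healthy tissue of 0.26 (exact permutation p = 0.333). Type V to type I differed more: COL5A2 had between 76.7 and 425 reads per 100 COL1A1 reads in healthy libraries and between 5.04 and 14.3 in the 6 defect libraries, which do not overlap. That log2 difference was -3.94 (exact permutation p = 0.0238, adjusted over the 3 ratios between members 0.0714, and 0.0741, adjusted 0.111, within equal replicate numbers), and was not called. It largely restates the COL1A1 difference with the sign turned, since COL5A2 itself differed from healthy tissue by 0.064 and -0.16. COL3A1 had between 91.6 and 1078 reads per 100 COL1A1 reads in healthy and between 9.94 and 136 in defect libraries, which overlap (log2 difference -2.97, exact permutation p = 0.0714, adjusted 0.107).

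Over the 9 libraries COL1A1 and COL1A2 had a Pearson r of 0.985 and a Spearman rho of 0.917 on the log2 scale, which is largely the difference between defect and healthy tissue. Within the 6 defect libraries r was 0.675 (rho 0.714). COL3A1 and COL5A2, which lie next to each other among genes with a symbol in the RefSeq annotation, had an r of 0.886 and the same rank order within the 6 defect libraries, and 0.668 (rho 0.55) over all 9. Within the defects COL3A1 had an r of 0.717 (rho 0.6) with COL1A1 and of 0.060 (rho 0.029) with COL1A2. These are descriptions, since the libraries fall into groups and share scaling.

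The genes most like all 4 collagens over the 9 libraries, by the mean Pearson r, were HTRA1 (0.71), a secreted serine protease, TNC (0.70), the matrix glycoprotein tenascin C, LUM (0.70), the small leucine-rich proteoglycan lumican, PSMA4 (0.70), a proteasome subunit, and TANC2 (0.69), a synaptic adaptor protein. TNC had 11.3, 8.12 and 10.8 normalized reads in healthy, 44.1, 10.002 and 60.7 in untreated and 45.5, 16.7 and 51.0 in CLCS libraries. LUM had 0.94, 0 and 0 in healthy, 30.7, 6.001 and 63.5 in untreated and 15.5, 7.87 and 39.8 in CLCS libraries, and passed the low value filter only between CLCS and untreated tissue. In both, replicate 2 was the lowest of the defect libraries of its group and replicate 3 the highest, as it was for COL3A1.

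Companion genes of collagen biosynthesis were examined by role. Prolyl and lysyl hydroxylases and chaperones modify and fold procollagen in the endoplasmic reticulum. Of 21 such genes 16 were in the table and 8 were tested against healthy tissue, and 0 were called in untreated and 0 in CLCS defects by limma (median log2 fold change -0.16 and -0.13, against -0.02 and -0.08 over all genes). PPIB, a procollagen prolyl isomerase, differed by -0.35 and 0.021 (limma adjusted p = 0.670 and 0.980). P3H2, a prolyl 3-hydroxylase, differed by 0.036 and -0.19 (adjusted p = 0.977 and 0.878). PLOD2, the telopeptide lysyl hydroxylase, differed by -1.26 and -0.82 (adjusted p = 0.368 and 0.335). The list summed to between 222 and 381 normalized reads in every library.

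Of 24 genes of fibril processing and assembly 20 were in the table and 15 tested against healthy tissue, and 1 was called, POSTN, which encodes periostin, a matricellular protein that binds type I collagen. POSTN had 6.60, 1.01 and 0 normalized reads in healthy, 68.5, 38.0 and 96.1 in untreated and 67.2, 63.0 and 59.8 in CLCS libraries, so all defect libraries lay higher. With 7, 1 and 0 healthy reads it passed the low value filter only through the defect libraries, so it could enter the test only as higher in defects. Against healthy cartilage POSTN rose by 4.69 ± 0.74 (SE) in untreated defects, with a limma adjusted p of 0.0286, and by 4.69 ± 0.67 in CLCS defects, with an adjusted p of 0.0168. The median of the list was -0.22 and 0.098. With so few healthy reads the size depended on the pseudocount (from 3.50 with 4 to 5.61 with 0.25 in untreated defects, where 0.25 also ended the call with an adjusted p of 0.0621), and the calls ended without single libraries other than healthy 1 in untreated defects (adjusted p from 0.0773 to 0.105) and other than healthy 1 and 2 in CLCS defects (adjusted p from 0.0620 to 0.103). Over the 9 libraries POSTN was the gene most like COL1A1 (r = 0.993) and most like COL1A2 (r = 0.989), a result looked up after its values were seen. The abundant members FN1, SPARC, LOXL3 and LOXL4, which encode fibronectin, osteonectin and lysyl oxidase-like enzymes, were not called. LOXL3 was lower in every untreated than in every healthy library (log2 fold change -2.38, limma adjusted p = 0.121). It differed by -1.46 in CLCS defects (adjusted p = 0.307). BMP1, chosen here after its values were seen, had 8, 3 and 0 healthy reads and lay higher in every defect library. It differed by 2.603 and 2.88 (limma adjusted p = 0.127 and 0.0833). Of the 15 tested, 2 in untreated and 3 in CLCS defects had every library higher, and 3 and 1 every library lower. SPARC, which binds collagen, had log2 fold changes of -0.33 (limma adjusted p = 0.855) and 0.15 (adjusted p = 0.900).

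Among 19 receptors, proteases and inhibitors of collagen, 14 were in the table and 8 were tested against healthy tissue. MMP13, collagenase 3, was the 1 gene called in each comparison. It had 4.71, 4.06 and 3.61 normalized reads in healthy, 70.1, 71.0 and 116 in untreated and 51.7, 27.6 and 39.8 in CLCS libraries. With 5, 4 and 4 healthy reads, MMP13 too passed the filter only through the defect libraries and could enter the test only as higher in defects. Its log2 level rose by 4.04 in untreated defects (SE 0.32, limma adjusted p = 0.00513) and by 2.95 in CLCS defects (SE 0.31, adjusted p = 0.0104). The calls ended without healthy 2 or untreated 1 (adjusted p = 0.0583 and 0.0544) and without healthy 3, CLCS 1 or CLCS 3 (adjusted p = 0.0620, 0.0763 and 0.0505). Between the defect groups, MMP13 was lower in every CLCS than in every untreated library (log2 difference -1.10, SE 0.35). This did not pass the limma adjustment (adjusted p = 0.996, unadjusted 0.0146), and 8.34% of all genes had groups that do not overlap, in either direction. CTSK, cathepsin K, which cleaves the type I triple helix, differed by 3.07 (adjusted p = 0.0980) and 2.23 (adjusted p = 0.225). The collagen-binding integrin chain ITGA11 differed by -0.24 and -0.18 (adjusted p = 0.776 and 0.780).

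Other fibrillar collagens and regulators gave no call. Of 7 further fibrillar collagens 6 were in the table and 5 tested against healthy tissue, with 0 called by limma in either comparison. COL11A1, a cartilage collagen chain, differed by -1.15 in untreated (adjusted p = 0.169) and -0.52 in CLCS defects (adjusted p = 0.588). COL11A2 differed by -1.38 in untreated (adjusted p = 0.435) and 0.069 in CLCS defects (adjusted p = 0.961). Of 21 genes of TGF-beta signalling and collagen transcription 17 were in the table and 5 tested, again with 0 called. CTGF, a connective tissue growth factor, had log2 fold changes of -1.75 (adjusted p = 0.185) and -1.11 (adjusted p = 0.293).

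Type I collagen is made by both bone and fibrous tissue cells, so markers of each were read beside it. Of 12 osteoblast markers 10 were in the table. Their summed level was between 310 and 928 normalized reads in healthy, between 986 and 2999 in untreated and between 1865 and 2438 in CLCS libraries. The defect sums did not overlap with healthy tissue, and IBSP, bone sialoprotein, held the largest part of each sum. The 5 markers tested all had positive log2 fold changes in both comparisons. SPP1 and DMP1 still overlapped with healthy tissue in both, and ALPL in untreated defects, and limma called none of them. SPP1 had 207 normalized reads in healthy 1, against 180 in untreated 3 and 153 in CLCS 3. IBSP rose by 2.46 in CLCS defects (SE 0.40, limma adjusted p = 0.0277) and differed by 2.24 in untreated defects (adjusted p = 0.125). Its call held without healthy 1 and ended without any other single library (adjusted p from 0.0545 to 0.136), with all 9 libraries in 1 fit (0.0594) and with no filter on low values (0.0983). DESeq2 also called IBSP in untreated defects (adjusted p = 0.00359). BGLAP, osteocalcin, had 126, 60.9 and 37.0 normalized reads in healthy, 210, 140 and 216 in untreated and 302, 223 and 238 in CLCS libraries. Its groups did not overlap with healthy tissue either, which with every defect library higher was found for 11.3% and 12.2% of all genes. Its order among the healthy libraries was that of COL1A1 and COL1A2, although its log2 fold changes of 1.48 and 1.92 were not called (adjusted p = 0.168 and 0.0720). SP7 was at 3 reads or fewer in every library, and SOST had 1 read in all. The label of the 4 genes names fibrous tissue, so fibroblast markers were read as well. Of 12 such markers 10 were in the table and summed to between 17.7 and 70.7 normalized reads in every library. These sums were between 26.2 and 46.2 in healthy, 28.01 and 70.7 in untreated and 17.7 and 66.1 in CLCS libraries, and PDGFRA, the 1 marker tested against healthy tissue, was not called. PDGFRB had 2.83, 7.10 and 0.90 normalized reads in healthy, 14.2, 4.001 and 15.4 in untreated and 17.6, 5.90 and 7.47 in CLCS libraries. S100A4 had 7.54, 1.01 and 0 in healthy, 5.51, 4.001 and 14.5 in untreated and 10.3, 3.94 and 12.5 in CLCS libraries. Both overlapped between the groups and were too low for the test against healthy tissue. FBLN2 was at 0 in the 3 healthy libraries and had reads in 4 of the 6 defect libraries, and MFAP5 was at 0 in 8 of the 9 libraries. The part of bone and of fibrous tissue in the type I collagen difference was not tested.

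Markers of other tissues were read in the same way. Chondrocyte markers, 12 of 16 in the table, summed to between 8682 and 12211 normalized reads in healthy, 840 and 10164 in untreated and 10167 and 28284 in CLCS libraries. COL2A1 held the largest part of each of these sums. Of 9 markers tested, 0 had a positive log2 fold change in untreated defects (median -1.19) and 5 in CLCS defects (median 0.069). CILP, a cartilage intermediate layer protein, was the 1 of 9 tested that was called. CILP fell by 2.78 ± 0.50 (SE) in untreated defects, with a limma adjusted p of 0.0381, and by 2.39 ± 0.43 in CLCS defects, with an adjusted p of 0.0361. Without any one library these calls ended (adjusted p from 0.0541 to 0.163), as they did with no filter (0.0729 and 0.110) and, in untreated defects, with a pseudocount of 0.25 (0.0511) and with library totals (0.0505). Osteoclast markers, 5 of 6 in the table, summed to between 5.42 and 20.7 in healthy, 49.0 and 102 in untreated and 23.7 and 68.2 in CLCS libraries, and CTSK alone to between 17.4 and 74.8 in the defect libraries. Macrophage markers summed to between 50.6 and 102 normalized reads in every library with 0 called by limma, and endothelial markers to 16.5 or less, with none tested. Smooth muscle and pericyte markers, 4 of 7 in the table, summed to between 322 and 424 in healthy, 572 and 929 in untreated and 764 and 1104 in CLCS libraries, nearly all of it MYH11, whereas ACTA2 was at 2 reads or fewer. Skeletal muscle markers summed highest in healthy libraries and none was tested.

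**Figure D4:**
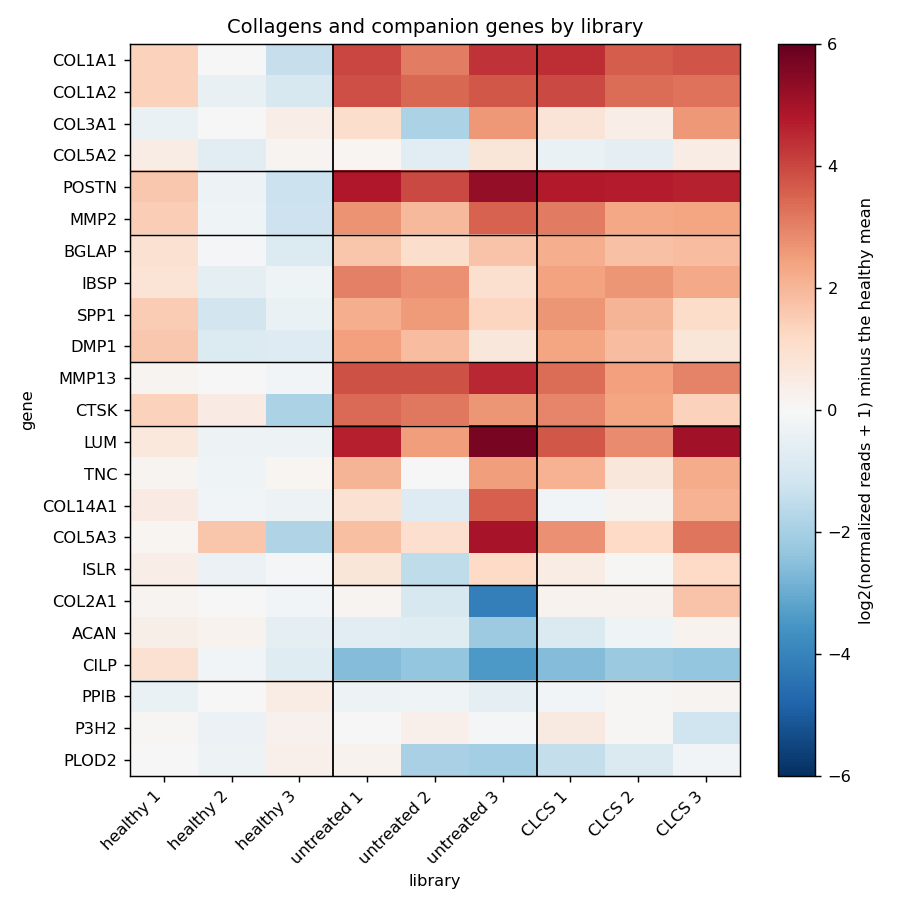
Log2(normalized reads + 1) minus the mean of the 3 healthy libraries, shown as colour (red higher, blue lower) for the 4 collagens and companion genes (rows) in 9 libraries (columns). POSTN, MMP2, MMP13 and the bone markers are red in the defect libraries along with COL1A1 and COL1A2. Untreated 3 is darker red than every other library for LUM, POSTN and COL5A3 (5.69, 5.29 and 4.96), among other genes, and blue for COL2A1. The folding genes PPIB, P3H2 and PLOD2 are pale or blue. The bone markers SPP1 and DMP1 are higher in healthy 1 (1.52 and 1.62) than in untreated 3 (1.31 and 0.67) or CLCS 3 (1.08 and 0.73).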

How the data were processed

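RNA sequencing was analysed for 9 rabbit libraries, 3 per group, with groups and replicate numbers taken from the sample labels. Per their methods, the authors used polyA RNA and TruSeq libraries. TopHat with Bowtie placed the read pairs on oryCun2.0, reads with more than 1 alignment were dropped, eXpress gave counts per gene and DESeq2 normalized them. Tool versions, annotation release and strand setting are not given in the sources used here. As deposited, each value is a signal: the library's count for a gene over its size factor from DESeq2. Whole reads were recovered for 100% of values (tolerance 0.01). The 3 healthy columns stand in both tables with identical values and were used once.

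Each pair of groups was fitted over its 6 libraries with lmFit and eBayes of limma 3.58.1 (R 4.3.3) on log2-transformed deposited values (pseudocount 1), for genes kept by filterByExpr of edgeR 4.0.16, with Benjamini-Hochberg adjustment over all genes tested. Read ratios within a library were compared by two-sided exact permutation tests (scipy 1.17.1). Alternatives were other pseudocounts and scalings, no filter, a joint fit, edgeR, DESeq2 1.42.0, a replicate block (for ratios, exchange within equal replicate numbers, added after the data were seen), leaving out each library and, for ratios, an added read or other reference genes. The scripts were tested on simulated data.

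The 4 genes and the 13 gene lists were chosen with earlier results of these data known. Named are the 4 genes and COL2A1, called members of a list and up to 4 others with the most reads, defining markers, and the 5 genes with the highest mean Pearson r with the 4 genes. Any other gene was chosen after its values were seen, which is said where it appears. The deviations of libraries from their group means correlated across genes between equal replicate numbers with r of 0.29, 0.13 and -0.04 for untreated with healthy, 0.28, 0.14 and 0.19 for CLCS with healthy, and 0.25, 0.33 and 0.30 for CLCS with untreated libraries. The pairing criterion was every r over 0.1. CLCS libraries met it with either other group, and untreated with healthy libraries missed it through replicate 3 alone. Missing it does not show that libraries are unpaired, and pairing of CLCS libraries with both groups would also pair those groups. The labels name no batch.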

Additional observations from a re-analysis of the deposited data

How the results depend on the processing

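The number of collagens called in untreated against healthy tissue, 2, was 1 with a pseudocount of 0.25 (COL1A1 adjusted p = 0.0528) or the edgeR quasi-likelihood test (COL1A1 adjusted p = 0.0548), 0 with no filter on low values, and between 0 and 1 without single libraries. In CLCS against healthy tissue, 2 became 0 with no filter and between 0 and 2 without single libraries. Without the filter 14300 and 13856 genes entered the adjustment. All genes called, 89 in untreated and 104 in CLCS defects, became 20 and 13 with no filter and 275 and 243 with DESeq2, and 171 and 76 with all 9 libraries in 1 fit. Without single libraries they were between 1 and 9 and between 0 and 75. Scaling to the library total moved the median of all genes to 0.16 and -0.40 against healthy tissue and to -0.51 between the defect groups. The direction of the type I chains against healthy tissue was the same under every alternative run, as it was for POSTN, MMP13, IBSP and CILP, whose alternatives were chosen after the data were seen.

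Values near 0 changed sign. Untreated against healthy, COL3A1 was -0.43 without untreated replicate 3, and COL5A2 -0.24 without healthy replicate 2 and -0.27 without untreated replicate 3. CLCS against healthy, COL5A2 was 0.067 without healthy replicate 1 and 0.024 without CLCS replicate 2. CLCS against untreated, COL1A1 was -0.39 with library totals, -0.21 without untreated replicate 2 and -0.073 without CLCS replicate 1, COL3A1 was -0.57 without untreated replicate 2 and COL5A2 0.11 without untreated replicate 3. The log2 differences of the ratios to COL2A1 were between 3.53 and 4.96 for COL1A1, 3.33 and 4.70 for COL1A2 and -0.48 and 0.73 for COL5A2 without single libraries, where the smallest attainable p limits the call. COL3A1 between CLCS and untreated defects was 0.10 with edgeR and 0.11 with DESeq2. Across all single libraries left out, the values against healthy tissue were between -0.43 and 1.83 for COL3A1 and between -0.27 and 0.43 for COL5A2 in untreated, and between -0.47 and 0.067 for COL5A2 in CLCS defects. Between CLCS and untreated defects they were between -0.21 and 0.43 for COL1A1, between -0.57 and 1.68 for COL3A1 and between -0.59 and 0.11 for COL5A2. The cause of these changes was not tested.

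With the replicate number as a block, limma called 94, 125 and 0 genes in the 3 comparisons and 2, 2 and 0 of the 4 collagens, which changed no call of the 4. The log2 differences of 4.34 and 4.08 in the ratios of COL1A1 and COL1A2 to COL2A1 lost their calls when exchanged only within the replicate block (exact permutation p = 0.0741, adjusted 0.148), an alternative chosen after the data were seen. For untreated with healthy libraries, which missed the pairing criterion through replicate 3 alone, COL1A1 had a limma adjusted p of 0.0409 with the block. With 3 libraries per group and 40 to 262 healthy reads of COL1A1, spread between libraries limits the precision more than depth.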

Other observations

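The third untreated library combined the highest level of 3 of the 4 collagens in its group with the fewest cartilage reads. There COL1A1, COL3A1 and COL5A2 measured 1925, 1831 and 229 normalized reads, while IBSP, the bone marker with the most reads, measured 559 against 2323 and 1946 in the other untreated libraries. COL1A1 had 345 reads per 100 IBSP reads in this library, between 40.9 and 133 in the other defect libraries and between 14.9 and 49.7 in healthy ones. COL14A1, a fibril-associated collagen of dense connective tissue, measured 39.9 normalized reads there, 13.7 in CLCS 3 and 5.51 or less in the other 7 libraries. These genes were compared after their values were seen, and no test was run on a single library.

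Genes whose pattern was most like a single collagen, listed after their values were seen, differed between the members. After POSTN and the partner chain, COL1A1 was most like MMP2 (Pearson r = 0.979 over 9 libraries), gelatinase A, and BGLAP (0.977), osteocalcin. MMP2 had 5.65, 1.01 and 0 normalized reads in healthy, 14.2, 8.001 and 26.3 in untreated and 19.6, 10.8 and 11.2 in CLCS libraries. COL3A1 was most like DNM2 (0.923), a dynamin of membrane fission, and ISLR (0.917), the stromal cell surface protein meflin, and COL5A2 most like FXYD5 (0.924), a regulator of the sodium pump.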
